A study of Homo sapiens with 9 samples.

Results

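The 10 genes described here make, control or break down the polyamines: ODC1, AMD1, SRM and SMS on the synthetic side, OAZ1, OAZ2 and AZIN1 as regulators, and SAT1, SMOX and PAOX on the catabolic side. They were picked by name from the 58096 genes counted. ODC1 led the choice because it had already been found higher when TLX1 was reduced, so its values in that comparison, intervals and adjusted p-values included, describe what the choice was made on and support nothing, and the other 9 genes were taken for their roles. The libraries are total RNA from ALL-SIL, a human T-cell acute lymphoblastic leukaemia line whose cells were electroporated with a small interfering RNA (siRNA) and collected at 24 h. There were 3 libraries with TLX1 siRNA s46, 3 with TLX1 siRNA s47 and 3 with a scrambled control siRNA, whose dose is labelled as 400 nM. TLX1 encodes a homeobox protein whose misexpression defines a subset of this leukaemia, and all 3 groups share the line, the electroporation and the ribosomal RNA depletion. Separate cultures are not mentioned in the labels, and the p-values below then reflect only how far these libraries spread, which may be technical.

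Putrescine, spermidine and spermine are small positively charged molecules that bind RNA and DNA, and growing cells need them. ODC1 makes putrescine from ornithine, and AMD1 prepares the aminopropyl groups that SRM and SMS add to make spermidine and then spermine. Antizymes bind ODC1 and hand it to the proteasome, AZIN1 resembles ODC1 without its activity and soaks up antizyme, and SAT1, SMOX and PAOX run the pathway backwards. ODC1 is a classic target of MYC, a transcription factor that binds E-boxes, and proliferating lymphoid cells are known for high polyamine synthesis.

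Sequence features that the choice of genes did not use are shown first, because they are where the textbook controls of this pathway act. RefSeq promoter windows (GRCh38.p14, 300 bases, from 250 before to 50 after each annotated start) were found for 7 of the 10 genes. The E-box CACGTG, which reads the same on both strands, occurred in the windows of ODC1 and SRM and in none of those of SMS, AMD1, SAT1, OAZ1 and OAZ2. It occurred at least once in 7.26% of all 35116 windows and at least 2 times in 0.664%. These shares are per window and not per gene, and a gene can have several windows (ODC1 had 2 and AMD1 3). Of the 2 ODC1 windows, the downstream one held both of its copies, at chr2:10448024-10448053 and chr2:10447990-10448019 (minus strand), inside the gene body and in no annotated exon. The SRM copy lay upstream of the gene, at chr1:11060200-11060229 (minus strand). Capitals mark the E-box, and positions are those of the whole printed stretch.
ODC1 first E-box: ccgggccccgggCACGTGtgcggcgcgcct
ODC1 second E-box: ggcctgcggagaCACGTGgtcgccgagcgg
SRM E-box: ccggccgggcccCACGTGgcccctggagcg

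A TATA element (TATAA, searched on both strands, in 20.4% of all windows) stood in windows of ODC1, AMD1 and OAZ1, and in none of those of SRM, SMS, SAT1 and OAZ2. The ODC1 copy lay at chr2:10448342-10448371 (minus strand), starting 32 bases before the annotated start of its window, inside the gene body as GENCODE draws it and within 1 annotated exon. The AMD1 copy lay at chr6:110874744-110874773 (plus strand), 29 bases before the start in one window and 28 in another. The OAZ1 copy lay at chr19:2269480-2269509 (plus strand), within the bases after the RefSeq start. It lay before the gene start in GENCODE (2269509) and in no annotated exon. Capitals mark the TATA element, and positions are those of the whole printed stretch. A match to these letters is a description, not a measured binding site.
ODC1 TATA: acccgccggtgcTATAAgtagggagcggcg
AMD1 TATA: ggagccgggataTATAAgggcggtgctcac
OAZ1 TATA: gggcgcagcatcTATAAaggcgggcggcgg

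Antizyme mRNAs carry an in-frame stop codon that ribosomes slip past when polyamines are plentiful, which is how the pathway senses its own product. The GENCODE 29 transcripts of both antizyme genes hold that site, in 7 of 11 OAZ1 transcripts and 5 of 9 OAZ2 transcripts. The 30 bases around it were identical at 28 positions between OAZ1 and OAZ2. In 2 OAZ1 and 3 OAZ2 coding models the sequence is written with 1 base fewer there, which joins the reading frames. RNA counts do not measure the slip itself. Capitals mark the stop codon.
OAZ1 frameshift site: cggtggtgctccTGAtgcccctcacccacc
OAZ2 frameshift site: ctgtggtgctccTGAtgcccctcacccact

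The libraries held 21134650 to 33393740 sense gene reads each, and 16072 genes had enough reads to be tested. TLX1, the targeted gene, averaged 76.6 ± 11.9 CPM with s46 and 70.8 ± 6.28 CPM with s47, against 185.9 ± 13.5 CPM with scrambled siRNA (SD, n = 3 each), and no siRNA library reached a scrambled one. Scrambled replicate 1 stood apart: 14.4% of its reads mapped to several places, against 6.36% to 7.34% in the other 8 libraries, 39.9% of its reads fell in genes, against 52.7% to 59.9%, and it correlated with the other scrambled libraries at 0.964 and 0.973, against 0.982 to 0.989 for all other pairs within a group. Some fold changes are given with and without it. Those given without a second value include it and may lean on it too. All 10 T-lineage markers averaged at least 1 CPM in both conditions and summed to 1424 to 1575 CPM in siRNA libraries and 1303 to 1454 CPM in scrambled ones. Within that sum 7 of the 10 markers had a log2 fold change above 0 and 3 below, and 46.5% of all tested genes were above 0. An unadjusted p under 0.05 was found for 5 of 10, against 17.8% of all tested genes, and an adjusted p under 0.05 for 0 (edgeR). CD1A was at 48.7 against 26.6 CPM, CD3D at 382.6 against 296.8 CPM and CD7 at 156.7 against 222.0 CPM (siRNA against scrambled means). B-lineage markers summed to 10.4 to 14.8 CPM against 11.1 to 13.3 CPM, with no read for CD22. Of these 6 markers 2 averaged at least 1 CPM, CD79A at 6.27 and CD79B at 5.59 CPM over all 9 libraries. Both were above the T-lineage marker CD2 (3.39 CPM). Myeloid markers summed to at most 0.541 CPM against at most 0.627 CPM, and erythroid markers to at most 0.174 CPM against at most 0.179 CPM, with no read for HBA1, ALAS2 or GATA1. The part of these markers in the results below was not tested.

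ODC1 (ENSG00000115758.12, chromosome 2, 10439968 to 10448504, minus strand) was higher with both TLX1 siRNAs. Its level was 192.9, 217.3 and 221.4 CPM in the s46 libraries and 222.5, 195.3 and 235.2 CPM in the s47 libraries, against 99.4, 152.9 and 134.1 CPM in the scrambled libraries. CPM are counts per 1e6 reads after TMM scaling, and these levels rest on 2219 to 7341 reads per library. The lowest siRNA library, s46 replicate 1, lay above the highest scrambled library, replicate 2, so the groups did not overlap, and the scrambled libraries were the more spread out. Groups were apart in that way and direction for 4.47% of all tested genes. In bulk RNA a change in the share of cells that express a gene and a change in its RNA per cell cannot be told apart. Both TLX1 siRNAs were set against the same scrambled siRNA. A rise with the TLX1 siRNAs and a fall with the scrambled siRNA therefore cannot be told apart either, here or for the genes below.

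The means were 210.5 ± 15.4 CPM with s46 and 217.7 ± 20.4 CPM with s47, against 128.8 ± 27.1 CPM with scrambled siRNA (SD, n = 3 each). Averaged over the siRNAs, the log2 fold change over scrambled was 0.73 ± 0.14 (SE, 95% confidence interval 0.44 to 1.03), a 1.66-fold higher level, and stood at the 98.7th percentile of all tested genes. With s46 it was 0.71 ± 0.15 and with s47 0.76 ± 0.15. These 2 comparisons share the 3 scrambled libraries, so one does not repeat the other. ODC1 was chosen because it passed with the siRNAs averaged (edgeR adjusted p 0.0299, threshold 0.05), and taken singly neither siRNA passed it (edgeR adjusted p 0.107 with s46 and 0.0641 with s47). Without scrambled replicate 1 the log2 fold change was 0.58 ± 0.11.

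**Figure D1:**
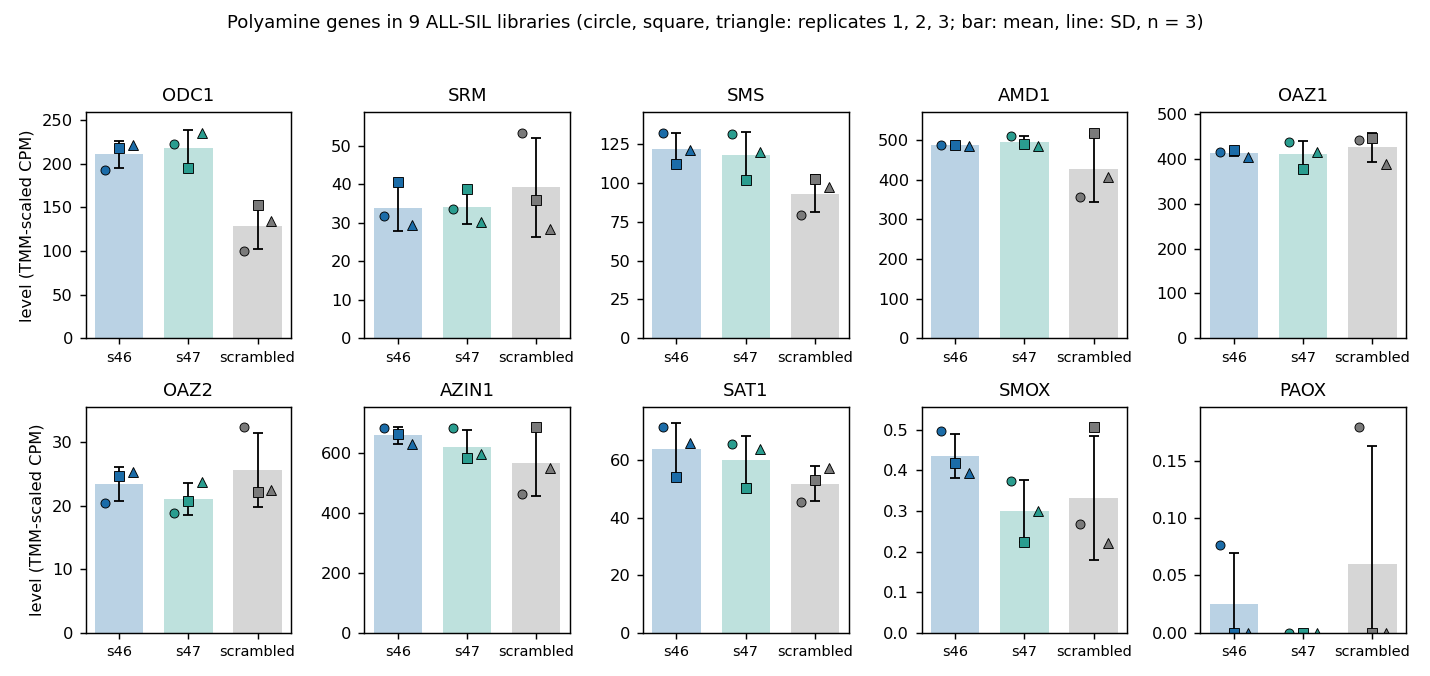
Level of each of the 10 polyamine genes in TMM-scaled CPM (y axis, from 0, a separate scale for each gene) in the s46, s47 and scrambled libraries (x axis). Points are libraries, with a symbol for each replicate number, bars are means and lines are SD (n = 3). ODC1 lies at 192.9 to 235.2 CPM in the siRNA libraries, above all scrambled libraries (99.4 to 152.9 CPM), and every other gene overlaps between the siRNA and scrambled libraries.

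The s46 and s47 libraries were then compared with each other, a contrast that played no part in the choice of genes and shares no scrambled library. ODC1 differed by -0.05 ± 0.15 on the log2 scale (s46 minus s47, SE, 95% confidence interval -0.38 to 0.28). Of the 9 tested polyamine genes 0 passed the threshold (edgeR adjusted p 1.0 for each), 0 had an unadjusted p under 0.05, and 0 passed by DESeq2 or limma-voom. Over all tested genes 0% passed in this contrast, and 113 (0.703%) had an unadjusted p under 0.05.

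AMD1, S-adenosylmethionine decarboxylase, supplies the aminopropyl donor. Its level was 487.6, 487.7 and 483.8 CPM with s46 and 510.8, 491.2 and 483.8 CPM with s47, against 355.8, 518.3 and 406.4 CPM with scrambled siRNA. The 6 siRNA libraries lay close together, with a coefficient of variation of 2.07% against 19.5% over the scrambled libraries, and scrambled replicate 2 was above them all. The log2 fold change was 0.20 ± 0.12 (SE, edgeR adjusted p 0.383). Leaving out scrambled replicate 1 gave 0.087 ± 0.10 and leaving out scrambled replicate 2 gave 0.37. In the latter fit AMD1 passed the threshold (edgeR adjusted p 0.0441, against 0.0441 to 0.869 over all fits that leave out 1 library). That fit called 1650 genes, the most of the fits that leave out 1 library, against 91 with all 9 libraries (edgeR).

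SMS, spermine synthase, had the second-highest log2 fold change of the 9 tested genes. It measured 132.1, 111.9 and 120.8 CPM with s46 and 131.6, 101.7 and 119.9 CPM with s47, against 79.5, 102.5 and 97.1 CPM with scrambled siRNA. All 3 s46 libraries were above every scrambled one, as in 7.45% of all tested genes, and s47 replicate 2 fell just under scrambled replicate 2, so the groups overlapped by that library. The log2 fold change was 0.36 ± 0.12 (SE, 95% confidence interval 0.10 to 0.62) and did not pass the threshold (edgeR adjusted p 0.201). It was 0.26 ± 0.11 without scrambled replicate 1.

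SRM, spermidine synthase, acts between ODC1 and SMS in the chain from ornithine. It measured 31.7, 40.6 and 29.4 CPM with s46 and 33.6, 38.7 and 30.1 CPM with s47, against 53.4, 35.9 and 28.3 CPM with scrambled siRNA. Scrambled replicate 1 was the highest of the 9 libraries and scrambled replicate 3 the lowest. The log2 fold change was -0.20 ± 0.18 (SE, edgeR adjusted p 0.555), and it turned to 0.084 ± 0.15 without scrambled replicate 1, so its direction rests on that library. The part of the E-boxes printed above in the level of SRM or ODC1 was not tested.

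Among the regulators, OAZ1, the main antizyme, moved least. It measured 415.8, 419.5 and 404.8 CPM with s46 and 436.8, 377.0 and 415.9 CPM with s47, against 442.0, 447.2 and 389.4 CPM with scrambled siRNA. The groups overlapped at a log2 fold change of -0.05 ± 0.10 (SE, 95% confidence interval -0.26 to 0.16, edgeR adjusted p 0.812).

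OAZ2, a second antizyme, measured 20.4, 24.6 and 25.4 CPM with s46 and 18.8, 20.8 and 23.8 CPM with s47, against 32.4, 22.1 and 22.5 CPM with scrambled siRNA. Scrambled replicate 1 was the highest library, and the other scrambled libraries lay inside the siRNA range. The log2 fold change was -0.20 ± 0.15 (SE, edgeR adjusted p 0.469) with that library and -0.0032 without it. Reads on the strand opposite OAZ2 made up 16.7% of its stranded reads, from 82 to 229 per library. The antisense gene AC100830.3 overlaps 554 bases of OAZ2 exon, and the opposite-strand reads themselves gave a log2 fold change of -0.31 ± 0.27 (SE, edgeR adjusted p 0.714).

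AZIN1, the antizyme inhibitor, was among the most abundant of the 10. It measured 686.3, 666.2 and 630.3 CPM with s46 and 684.8, 585.8 and 597.4 CPM with s47, against 465.2, 687.4 and 552.2 CPM with scrambled siRNA. Scrambled replicate 2 was the highest library of all and scrambled replicate 1 the lowest, the same arrangement as in AMD1. The log2 fold change was 0.17 ± 0.13 (SE, edgeR adjusted p 0.472) and 0.051 ± 0.11 without scrambled replicate 1. AZIN1-AS1 overlaps 344 bases of its exons from the other strand, and opposite-strand reads were 0.563% of AZIN1's.

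On the catabolic side, SAT1, which acetylates spermidine and spermine so that they can be exported or oxidised, had 71.4, 54.1 and 66.1 CPM with s46 and 65.6, 50.3 and 63.7 CPM with s47, against 45.3, 52.9 and 57.2 CPM with scrambled siRNA. Of the siRNA libraries, replicate 2 of each siRNA fell inside the scrambled range and the other 4 lay above it. Its log2 fold change was 0.25 ± 0.13 (SE, edgeR adjusted p 0.315), and 0.17 ± 0.13 without scrambled replicate 1.

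SMOX, which oxidises spermine directly to spermidine, was counted 6 to 15 times per library. It measured 0.496, 0.417 and 0.392 CPM with s46 and 0.374, 0.223 and 0.299 CPM with s47, against 0.269, 0.506 and 0.220 CPM with scrambled siRNA. Its log2 fold change of 0.10 ± 0.43 (SE, edgeR adjusted p 0.923) was too imprecise to give a direction, and the 95% confidence interval ran from -0.83 to 1.03. It was -0.026 without scrambled replicate 1. All s46 libraries were above all s47 libraries for SMOX, as in 2.68% of all tested genes, at a log2 difference of 0.54 ± 0.48 (SE, edgeR adjusted p 1.0). PAOX, the peroxisomal oxidase of acetylated polyamines, had 6 reads in all, 2 in s46 replicate 1 and 4 in scrambled replicate 1, and was not tested. A library with no read allows a level of up to 0.0905 to 0.134 CPM, counting 3 reads as the limit, and this covers counting error only.

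Of the 9 tested polyamine genes, ODC1 alone passed with the siRNAs averaged, in a comparison where 0.566% of all tested genes passed and 0.411% passed and were higher. The choice of ODC1 fixed that count. Of the 8 other tested genes, 0 passed with edgeR, with 1, SMS, at an unadjusted p under 0.05 (17.8% of all tested genes were), and 0 passed with DESeq2 or limma-voom. Their median log2 fold change was 0.14, against -0.03 over all tested genes. With s46 alone and s47 alone 0 of 9 passed, against 0.174% and 0.33% of all tested genes.

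**Figure D2:**
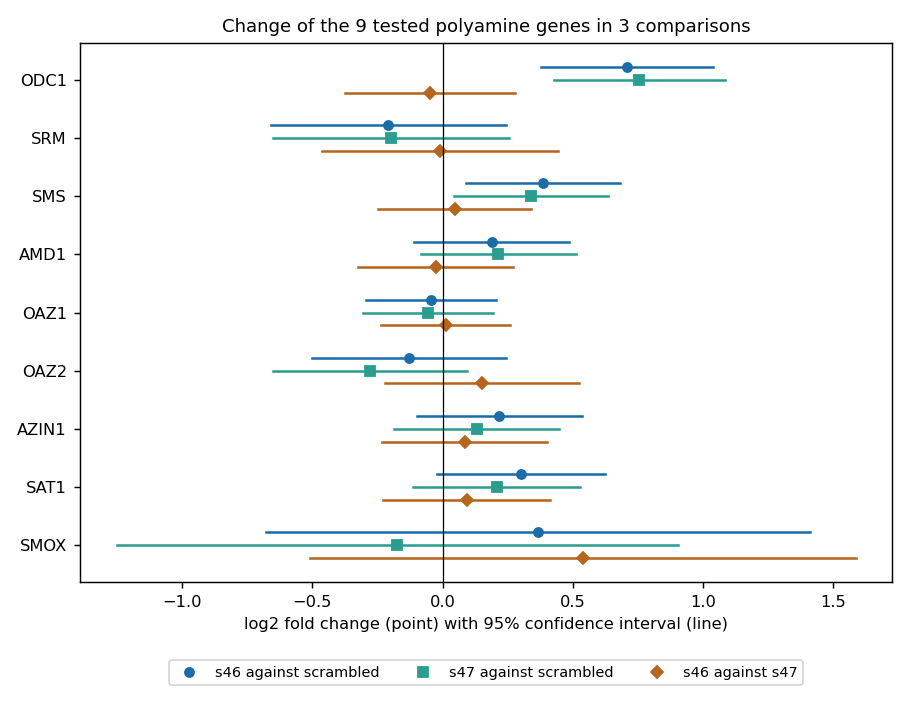
Log2 fold change (x axis; points) with 95% confidence interval (lines) of the 9 tested polyamine genes (y axis), for s46 against scrambled, s47 against scrambled and s46 against s47. ODC1, chosen for its difference from scrambled, lies at 0.71 and 0.76 there and at -0.05 between the siRNAs. The SMOX intervals are the widest.

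Levels were next compared between genes as CPM per kilobase of merged exon, which adjusts for length. In the 6 siRNA libraries OAZ1 stood highest at 119.8 ± 5.78, followed by AZIN1 at 99.9 ± 6.84, ODC1 at 72.1 ± 5.60, AMD1 at 69.8 ± 1.45, SMS at 55.4 ± 5.41, SAT1 at 24.8 ± 3.20, SRM at 17.9 ± 2.44 and OAZ2 at 2.90 ± 0.347 (CPM per kilobase, SD, n = 6). SMOX, at 0.125, and PAOX, at 0.0056, came last. Neighbours whose library ranges overlapped were ODC1 and AMD1, and SAT1 and SRM.

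In the 3 scrambled libraries the order was OAZ1 at 124.0 ± 9.32, AZIN1 at 88.4 ± 17.4, AMD1 at 60.7 ± 11.8, ODC1 at 43.4 ± 9.13, SMS at 43.1 ± 5.57, SAT1 at 20.7 ± 2.41, SRM at 20.6 ± 6.78 and OAZ2 at 3.35 ± 0.755 (CPM per kilobase, SD, n = 3). AZIN1 and AMD1, AMD1 and ODC1, ODC1 and SMS, SAT1 and SRM, and SMOX and PAOX overlapped there. The order depends on the length used. With the length of the longest transcript, AMD1 stood at 103.4 ± 2.14 and ODC1 at 80.7 ± 6.26 in the siRNA libraries (SD, n = 6), without overlap, and SMS at 50.7 ± 6.55 and ODC1 at 48.6 ± 10.2 in the scrambled libraries (SD, n = 3), with overlap. SAT1 stood at 54.5 ± 7.04 in the siRNA libraries and 45.6 ± 5.30 in the scrambled ones on that scale. OAZ1 and AZIN1 stood first and second in both conditions with either length, but with the longest transcript their library ranges overlapped in both conditions.

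**Figure D3:**
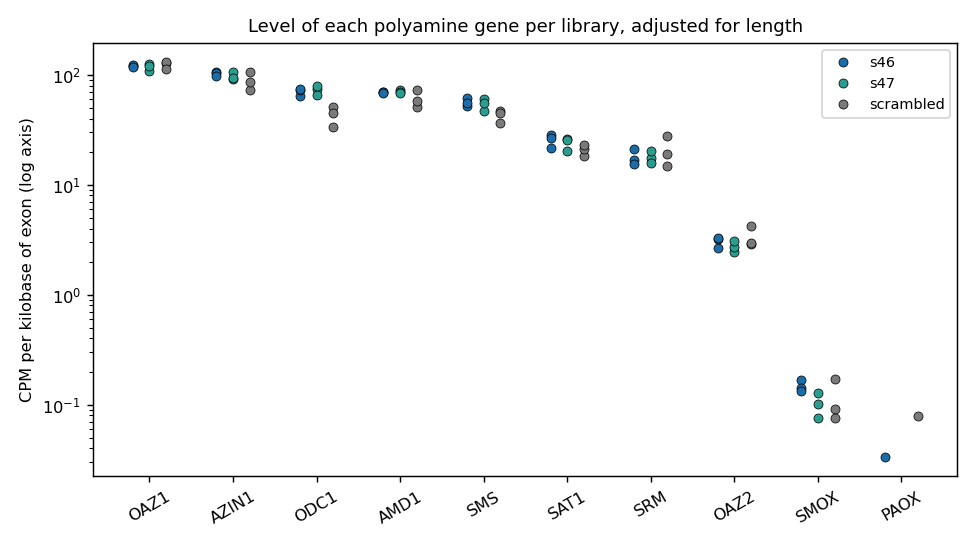
Level of each polyamine gene in CPM per kilobase of exon (y axis, log scale) in each s46, s47 and scrambled library (points), with genes (x axis) ordered by their mean in the siRNA libraries. ODC1 is near 72.1 in the siRNA libraries and 43.4 in the scrambled ones, and SMOX and PAOX lie far below the rest. Libraries at 0 cannot be drawn on the log axis.

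Because antizyme binds ODC1 and the inhibitor binds antizyme, their RNA levels were also set against each other within each library. ODC1 over the sum of OAZ1 and OAZ2 was 0.575 ± 0.0459 with s46 and 0.601 ± 0.0327 with s47, against 0.343 ± 0.0784 with scrambled siRNA (ratio of CPM per kilobase, SD, n = 3 each). The siRNA libraries spanned 0.526 to 0.638 and the scrambled ones 0.252 to 0.389, which did not overlap. This ratio contains ODC1 and inherits its selection.

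AZIN1 over the same sum was 0.834 ± 0.0274 with s46 and 0.794 ± 0.0396 with s47, against 0.696 ± 0.135 with scrambled siRNA, and overlapped between groups. SMS over SRM was 3.23 ± 0.701 with s46 and 3.08 ± 0.671 with s47, against 2.28 ± 0.878, and ODC1 over SAT1 was 2.83 ± 0.554 with s46 and 3.08 ± 0.208 with s47, against 2.08 ± 0.307, both overlapping (SD, n = 3 each). These are ratios of RNA, and neither protein nor polyamine was measured.

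Around the pathway, 54 genes in 7 lists were examined, covering minor polyamine genes, ornithine supply and use, the methionine cycle, methionine salvage, hypusine formation, polyamine transport and the MYC network. The lists were drawn up with earlier results of these data known. Of the 40 genes with enough reads, 0 passed the threshold with edgeR, against 0.566% of all tested genes. With DESeq2 1 passed and with limma-voom 0. DESeq2 also called more of all tested genes than edgeR did, as given at the end. Without scrambled replicate 1, 0 passed with edgeR. At an unadjusted p under 0.05 there were 10 (25.0%, against 17.8% of all tested genes), and 5 were higher and 2 lower with groups that did not overlap (4.47% and 3.65% of all tested genes). A log2 fold change above 0 was found for 23 of the 40 (57.5%), against 46.5% of all tested genes.

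In polyamine transport, 0 of 5 tested genes passed, 3 with a log2 fold change above 0 and 2 below. ATP13A3, a P-type ATPase linked to polyamine uptake, measured 312.8, 285.8 and 280.3 CPM with s46 and 304.1, 298.7 and 286.8 CPM with s47, against 208.6, 232.9 and 229.2 CPM with scrambled siRNA. All siRNA libraries lay above all scrambled ones. Its log2 fold change was 0.40 ± 0.10 (SE, edgeR adjusted p 0.0923), and it is the list gene that passed with DESeq2. Without scrambled replicate 1 it was 0.35 ± 0.09. ATP13A2, a lysosomal polyamine exporter, had -0.35 ± 0.14 with overlapping groups (SE, edgeR adjusted p 0.243). ATP13A4, a relative of ATP13A3, had -0.20 ± 0.31 (SE). Without scrambled replicate 1, ATP13A2 was -0.16 ± 0.12 and ATP13A4 -0.52 ± 0.26 (SE).

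In ornithine supply and use, 0 of 5 tested genes passed, 3 above 0 and 2 below. ALDH18A1, which makes the precursor of proline and ornithine from glutamate, measured 172.6, 188.4 and 180.7 CPM with s46 and 188.5, 183.9 and 189.2 CPM with s47, against 140.0, 160.8 and 151.9 CPM with scrambled siRNA. The groups did not overlap, at a log2 fold change of 0.28 ± 0.09 (SE, edgeR adjusted p 0.196). ASL, which splits argininosuccinate into arginine and fumarate, was low, at 1.83 to 2.28 CPM with siRNA and 2.43 to 4.04 CPM with scrambled siRNA, and also did not overlap (log2 fold change -0.75 ± 0.21 SE, edgeR adjusted p 0.154). SLC25A2, a mitochondrial ornithine carrier, averaged 0.315 CPM with siRNA and 0.455 CPM with scrambled siRNA, and its relative SLC25A15 had 0.16 ± 0.17 (SE).

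Several other genes of ornithine supply and use were barely counted in these libraries. Arginase ARG1 had 2 reads, both in s47 replicate 3, ARG2 had 3 to 22 reads per library, and ornithine transcarbamylase OTC had none. Ornithine aminotransferase OAT had 4 reads in s47 replicate 3, 1 in scrambled replicate 1 and none elsewhere, and argininosuccinate synthase ASS1 had 1 read in each of 2 siRNA libraries. ODC1 itself had at least 2219 reads in each of these libraries.

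In methionine salvage, which recycles the by-product of the SRM and SMS reactions, 0 of 5 tested genes passed, 3 above 0 and 2 below. APIP, the dehydratase of that route, measured 46.9, 40.7 and 49.6 CPM with s46 and 48.2, 43.1 and 48.4 CPM with s47, against 25.5, 38.0 and 38.4 CPM with scrambled siRNA. ENOPH1, the enolase-phosphatase that follows it, measured 118.3, 104.4 and 110.0 CPM with s46 and 120.5, 100.7 and 114.3 CPM with s47, against 72.8, 98.9 and 91.8 CPM. Neither gene overlapped between the conditions, with scrambled replicate 1 the lowest library for both, and the log2 fold changes were 0.44 ± 0.14 and 0.34 ± 0.12 (SE, edgeR adjusted p 0.188 and 0.210). Without scrambled replicate 1 they were 0.27 ± 0.11 and 0.23 ± 0.10 (SE, edgeR adjusted p 0.455 and 0.551). ADI1, which acts after ENOPH1, had 0.22 ± 0.12 (SE), and MTAP, the first enzyme of the route and one that leukaemias often delete, was present at 21.7 CPM with siRNA and 22.8 CPM with scrambled siRNA.

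In the methionine cycle, 0 of 8 tested genes passed, 5 above 0 and 3 below. AHCY, which clears S-adenosylhomocysteine, had a log2 fold change of 0.23 ± 0.10 (SE, edgeR adjusted p 0.258), and 0.16 ± 0.09 without scrambled replicate 1. MTR, methionine synthase, had 0.17 ± 0.10 (SE) and did not overlap between conditions. MAT2A, which makes the S-adenosylmethionine that AMD1 uses, averaged 466.3 CPM with siRNA and 462.5 CPM with scrambled siRNA. AHCYL2, an AHCY relative, had -0.26 ± 0.12 (SE).

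Hypusine is a spermidine-derived residue found on the translation factor eIF5A. Of its 4 tested genes 0 passed, and all 4 were above 0, as were 46.5% of all tested genes. EIF5A averaged 135.2 CPM with siRNA and 133.7 CPM with scrambled siRNA. DHPS, which attaches the spermidine part, had 0.05 ± 0.10, DOHH, which hydroxylates it, had 0.20 ± 0.18, and EIF5A2 had 0.22 ± 0.15 (SE). Without scrambled replicate 1, EIF5A2 was 0.064 ± 0.13 (SE). Among 5 minor polyamine genes only AZIN2, a second antizyme inhibitor, and SAT2, a relative of SAT1, had enough reads, with log2 fold changes of -0.19 ± 0.18 and -0.46 ± 0.33 (SE), and neither passed. OAZ3, the testis antizyme, had 1 to 8 reads per library.

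In the MYC network, 0 of 11 tested genes passed, 5 above 0 and 6 below. MYC measured 281.7, 465.4 and 337.1 CPM with s46 and 340.0, 458.8 and 344.5 CPM with s47, against 244.9, 387.6 and 255.2 CPM with scrambled siRNA. Replicate 2 was the highest library of every group and the groups overlapped, at a log2 fold change of 0.33 ± 0.19 (SE, edgeR adjusted p 0.366). Without scrambled replicate 1, MYC was 0.21 ± 0.21 (SE). MNT, a MAX-binding repressor, and MLXIP, a partner of MLX, had -0.85 ± 0.30 and -0.88 ± 0.32 (SE, edgeR adjusted p 0.213 and 0.233). Those values lean on scrambled replicate 1, where MNT was at 15.9 CPM and MLXIP at 127.2 CPM, against 3.59 to 6.57 CPM and 32.6 to 47.9 CPM in the other 8 libraries. Without that library they were -0.23 ± 0.21 and -0.17 ± 0.14 (SE, edgeR adjusted p 0.823 and 0.790). MXD3, a MAX partner that represses, had -0.47 ± 0.17 (SE, edgeR adjusted p 0.223) and did not overlap, at 16.2 to 27.2 CPM with siRNA and 28.5 to 33.6 CPM with scrambled siRNA.

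**Figure D4:**
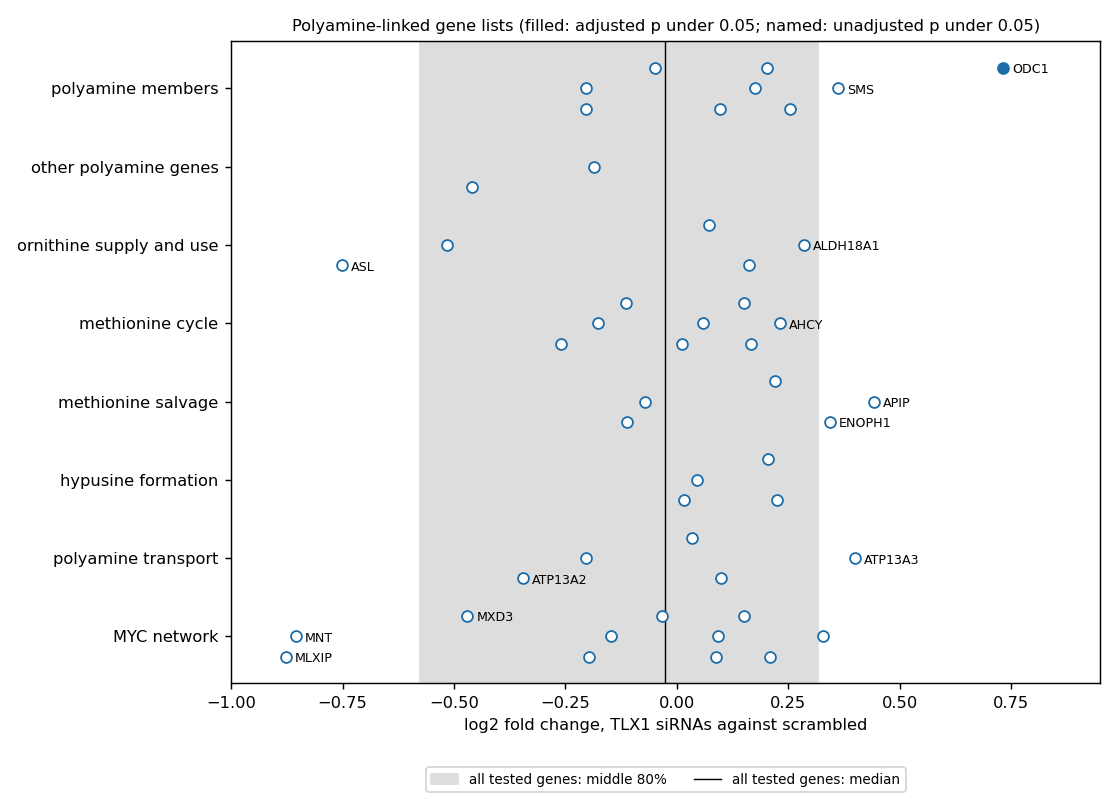
Log2 fold change of TLX1 siRNAs against scrambled (x axis) for each tested gene of the polyamine genes and the 7 neighbouring lists (y axis; the scatter within a row has no meaning). The filled point is the gene with an adjusted p under 0.05, names mark genes with an unadjusted p under 0.05, and the grey band holds the middle 80% of all tested genes around their median of -0.03. ODC1 at 0.73 is the filled point. ATP13A3, APIP, SMS, ENOPH1 and MYC also lie above the band, and ASL, MNT and MLXIP lie below it.

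Genes were also ranked by how closely their log2(CPM + 1) followed that of ODC1 over the 9 libraries, among 8022 genes with a mean log2 CPM of at least 4. The closest were DFFA, an inhibitor of the caspase-activated nuclease (r = 0.995), ALDH18A1 (0.980), NDUFA5, a respiratory complex I subunit (0.979), NEU3, a membrane sialidase (0.979), and L1TD1, an RNA-binding protein (0.979). At the other end were PLCB2, a phospholipase C (-0.965), TMC6 (-0.962) and TBC1D2B (-0.962). The points share 3 scrambled libraries in which ODC1 is low, and 341 genes (4.25%) had an r over 0.9, so a high r is common here and is given as a description. Within the 6 siRNA libraries alone the r with ODC1 was 0.965 for DFFA, 0.713 for ALDH18A1, 0.580 for NDUFA5, 0.721 for NEU3 and 0.803 for L1TD1. These 6 libraries are among the 9 on which the genes were ranked, so these r are no separate check.

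For the polyamine genes, r with ODC1 over the 9 libraries was 0.87 for SMS (rank 596 of 8022), 0.83 for AMD1 (rank 1066), 0.72 for AZIN1, 0.67 for SAT1, 0.31 for SMOX, -0.23 for OAZ1, -0.54 for SRM and -0.57 for OAZ2. Within the 6 siRNA libraries it was 0.19 for SMS, 0.03 for AMD1, -0.11 for AZIN1, 0.17 for SAT1, -0.093 for SMOX, 0.52 for OAZ1, -0.36 for SRM and 0.44 for OAZ2. The first 5 of these were lower than over all 9 libraries, and OAZ1, SRM and OAZ2 were higher.

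Overlapping genes and copies could blur these counts. The snoRNA gene SNORA80B lies in an ODC1 intron on the same strand, had at most 98 reads in a library and a log2 fold change of 0.25 ± 0.27 (SE). Opposite-strand reads were 0.0663% of ODC1's stranded reads. The AMD1 processed pseudogene AMD1P3 had 7 to 41 reads per library, against 7939 to 16039 for AMD1.

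A short word in 3′ UTRs had been brought up by the genes higher in these same siRNA libraries, so its shares are a description. GCAGTAC occurred in the 3′ UTR of 31 of the 63 genes called higher that have one (49.2%), against 541 of the 11027 other tested genes (4.91%). The 3′ UTRs searched for the 10 polyamine genes hold 0 copies, and its part in their levels was not tested. For every gene only the longest 3′ UTR among its coding transcripts that GENCODE tags as basic was searched. The overlapping word CAGTACA and the word AATCACT, which earlier results of these data had brought up in the same way, each occurred in OAZ2 and in no other of the 10 (8.91% and 15.1% of the 11090 tested genes with a 3′ UTR).

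The log2 fold change of ODC1, on which it was chosen, ran from 0.58 without scrambled replicate 1 to 0.88 without scrambled replicate 2 over the fits tried. Its adjusted p ran from 0.0113 to 0.116 when 1 library was left out (edgeR). It was over 0.05 without scrambled replicate 3 (edgeR adjusted p 0.116), without s46 replicates 1, 2 or 3 (0.0716, 0.0724 and 0.0922) and without s47 replicates 1 or 3 (0.0863 and 0.0956).

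**Figure D5:**
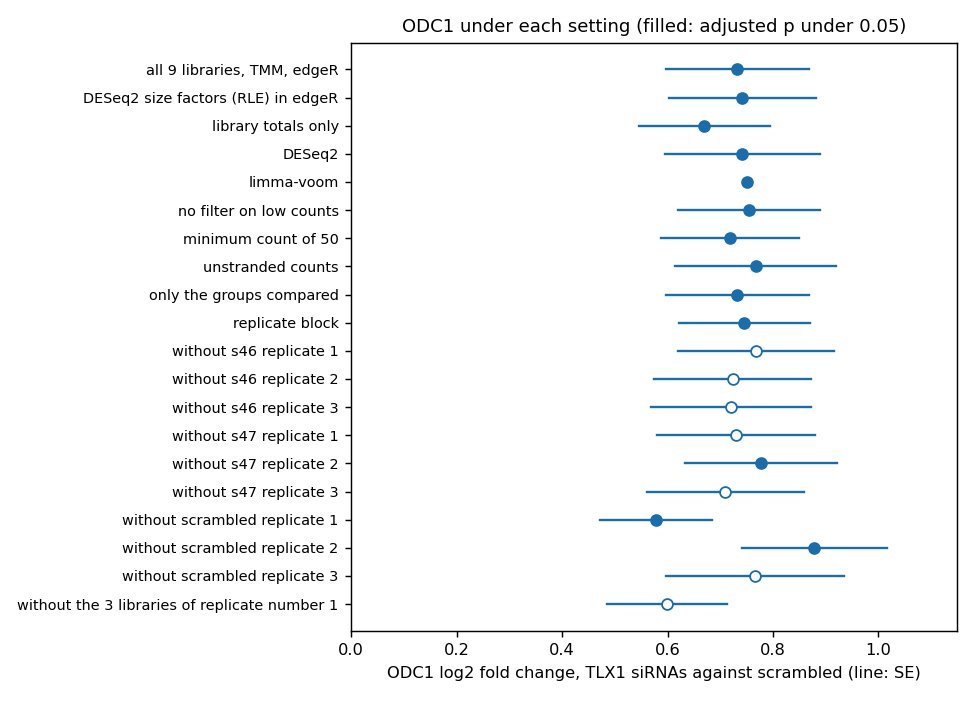
ODC1 log2 fold change, TLX1 siRNAs against scrambled (x axis; points), with its SE (lines; limma-voom is drawn without one) under each setting (y axis). Filled points have an adjusted p under 0.05. The values run from 0.58 without scrambled replicate 1 to 0.88 without scrambled replicate 2, all above 0.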

How the data were processed

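Total RNA of 9 ALL-SIL libraries was sequenced after ribosomal RNA depletion with a stranded kit (per the labels' protocols). Unnormalized counts of reads per gene were deposited by the authors, on build GRCh38 according to the submitters' processing notes. No source used here names the aligner, counting tool or annotation, which are therefore not given. Of the 3 count columns in each deposited file, the sense column was tested. The first 4 lines name no gene and were left out; reads in genes were 39.9% to 59.9% of all reads. Symbols, exon lengths and 3′ UTRs came from GENCODE 29, which matched 57492 of 58096 gene IDs.

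Genes were kept by filterByExpr (minimum count 10), TMM-scaled, and tested under R 4.3.3 by the robust quasi-likelihood F test of edgeR 4.0.16, with the 9 libraries in 1 fit and Benjamini-Hochberg adjustment over 16072 genes and a threshold of 0.05. SE were derived from the F statistics. The alternatives were DESeq2 1.42.0, limma 3.58.1 (voom), a replicate block, leaving out libraries, unstranded counts, other filters and scalings, and fits without the third group. On simulated data with 15730 genes, 65 of 100 genes with a 2-fold change were recovered for both siRNAs against scrambled. For a 1.5-fold change it was 25 of 100, and false calls numbered 6. Of the changed genes, 96 (2-fold) and 99 (1.5-fold) were tested. The simulated libraries were drawn independently, without a library like scrambled replicate 1, so these figures may not hold for the real ones. Depth was 21134650 to 33393740 sense gene reads.

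The members and lists were chosen with earlier results of these data known. Named genes were TLX1, the 10 members, up to 3 genes per list with the smallest unadjusted p, the 5 most and 3 least like ODC1 by Pearson r, and genes overlapping a member. Further list genes are named with values only and were chosen after their values were seen.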

Additional observations from a re-analysis of the deposited data

How the results depend on the processing

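ODC1, AMD1, SMS, SAT1 and OAZ1 kept the direction of their log2 fold change under every alternative. ODC1 was chosen on this comparison and these libraries, so its values under other settings are no support. Without the 3 libraries numbered 1, ODC1 was 0.60 (edgeR adjusted p 0.0507) and 0 polyamine genes passed; leaving out single libraries gave 0 to 2 (2 without scrambled replicate 2, with AMD1) and 0.58 to 0.88 for ODC1. SRM turned to 0.084 without scrambled replicate 1 and 0.11 without the libraries numbered 1, and ranged from -0.39 to 0.084 over single libraries left out. SMOX turned to -0.026 and -0.13 without scrambled replicates 1 and 3 (range -0.13 to 0.56) and to -0.17 without the libraries numbered 1, where OAZ2 was 0.080 and AZIN1 -0.00034. The causes were not tested.

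The number of genes called for both siRNAs, s46 and s47 was 91, 28 and 53. It was 458, 196 and 203 with DESeq2, and 876, 384 and 432 with no filter on low counts, where s46 against s47 gave 3. Library totals gave 14 for s46; fits of only the groups compared gave 6 for s46 and 8 for s47; leaving out the libraries numbered 1 gave 33 for s47. Leaving out single libraries gave 22 to 1650, 4 to 225 and 4 to 275, the highest without scrambled replicate 2 and the lowest for both siRNAs without scrambled replicate 3. Among the neighbouring lists, leaving out scrambled replicate 2 called ALDH18A1, ASL, ENOPH1, ATP13A3, MLXIP and MNT, and no filter called APIP and MNT.

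With the replicate number as a block the counts were 222, 74 and 125, and ODC1 was 0.75 (edgeR adjusted p 0.0222). Libraries sharing a number deviated together (r over 0.1) in 8 of 9 pairs, from -0.023 to 0.427, against 1 of 18 pairs with different numbers; no label gives the numbers a meaning, so this is a hint from the data only. These r are between deviations from the group means, for libraries of different groups only. On that measure every library correlated best with a library of its own number. Reads for SMOX and PAOX limit what can be said of them, and a minimum count of 50 left SMOX out of the test.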
